A study of Apis mellifera with 12 samples.

Results

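The brain cells described here were those in which the LIM-homeodomain gene *Lim3* was read at a high level, in single-cell libraries of whole honeybee (*Apis mellifera*) brains. A cell was taken as a Lim3 cell when it held at least 3 unique molecular identifiers (UMIs, each standing for 1 captured transcript) of *Lim3*, when these made up at least 5 of every 10000 UMIs of the cell, and when it held fewer than 2 UMIs of *bsh*, another homeobox gene. Of 121460 cells that passed the limits on genes, UMIs and the share of UMIs from features with the prefix MT-, 310 met this rule, a share of 0.255%. The working name of these cells, optic lobe neurons with Lim3, rests on *Lim3* and *Vsx1* as markers. Position in the brain is lost on dissociation, so the cells are called Lim3 cells below. The rule used the UMIs of *Lim3* and *bsh*, whose levels are given only as a description.

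Lim3 belongs to the LIM-homeodomain transcription factors, which carry a pair of zinc-binding LIM domains beside a DNA-binding homeodomain. In *Drosophila*, Lim3 and its relative Islet (isl) act in combinations that set the identity of neurons, including the path of their axons and the transmitter they release. Vsx proteins are homeodomain factors of the visual system, known from the optic lobe of flies and the retina of vertebrates. The insect optic lobe carries signals from the eye through the lamina, medulla and lobula, and holds many classes of GABA-, acetylcholine- and glutamate-releasing neurons. The study used *Lim3*, *Vsx1* and *svp*, a nuclear receptor gene, to mark neurons of the proximal medulla.

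The libraries came from adult bees of 3 groups, with 2 single-cell and 2 bulk libraries of each. Queens had been artificially reared and inseminated, and foragers (workers carrying pollen) and nurses (workers tending larvae) were picked from the same colony. Each single-cell library held the cells of several pooled brains, dissociated with papain and read with 10x Genomics 3' chemistry, and each bulk library held the RNA of pooled brains. A library is thus a pool of animals, and the p-values below measure the spread between such pools. The 6 single-cell libraries kept between 17415 and 22019 cells each, with median UMIs per cell between 4718 and 5971. Between 87 and 142 barcodes were shared by each pair of libraries.

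*Lim3* (LOC410658 in the files, annotated as LIM/homeobox protein Lhx3) lies on linkage group 16 of the Amel_HAv3.1 assembly, from base 6685594 to 6724151. *Vsx1* (LOC411315, annotated as visual system homeobox 2) lies on linkage group 9, from base 9630658 to 9684832. *Gad1* (LOC408432), which encodes the glutamate decarboxylase that makes GABA, lies on linkage group 13, from base 6391428 to 6409497. Counts were made per gene on the 3' ends of transcripts, so isoforms were not separated. Annotations given for gene IDs here and below are those of the study's gene tables.

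The Lim3 cells had a median of 5528 UMIs per cell, with a range from 2260 to 27818, against 5259 UMIs in all other kept cells, and their median was the higher in 5 of 6 libraries. The *Lim3* signal within them was sparse: 145 of the 310 cells held exactly 3 UMIs of *Lim3*, 64 held 4, 32 held 5, and the highest cell held 18. At least 1 UMI of *Lim3* was read in 10011 cells and at least 3 in 1715 cells, most of which fell under the limit of 5 per 10000 because they were deep. No cell was removed by the limit on *bsh*. No doublet caller was run, and 11 of the 310 cells lay above the upper UMI limit that the study set per caste.

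The limit cuts through a range of *Lim3* levels, so the cells on either side of it are given as a description. Just inside it, 124 cells with 5 to 6 UMIs of *Lim3* per 10000 had a median depth of 7250.5 UMIs. Their summed UMIs gave 939 CPM (counts per 1000000 UMIs) of *Gad1*, 332 CPM of *Vsx1* and 800 CPM of *SIFR*, the receptor of the neuropeptide SIFamide. Just outside it, 215 cells with 3 or more UMIs at 4 to 5 per 10000 had a median of 8615 UMIs, with 863 CPM of *Gad1*, 250 CPM of *Vsx1* and 572 CPM of *SIFR*. A further 213 cells held exactly 2 UMIs at 5 or more per 10000. These were shallower, with a median of 3401 UMIs, and gave 330 CPM of *Gad1*, 99.0 CPM of *Vsx1* and 277 CPM of *SIFR*.

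Several genes followed the *Lim3* signal across kept cells with fewer than 2 UMIs of *bsh*, as a description over pooled cells that differ in depth. *Gad1* stood at 119.9 CPM in the 110110 cells with 0 UMIs of *Lim3* and at 423.5 CPM in the 8231 cells with 1 or 2 UMIs. It reached 939.5 CPM in the 1396 cells with 3 or more UMIs under 5 per 10000, 409.2 CPM in the Lim3 cells with 3 UMIs and 1110 CPM in those with 4 or more. The order was therefore not steady, and it moved with depth: the medians of these 5 classes were 5071, 6667, 15418, 4541 and 7950 UMIs per cell. *PLCe*, a phospholipase C gene that marks Kenyon cells of the mushroom body, went the other way, from 5219 CPM in cells with 0 UMIs to 1134 and 778 CPM in the Lim3 cells with 3 and with 4 or more UMIs.

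**Figure D1:**
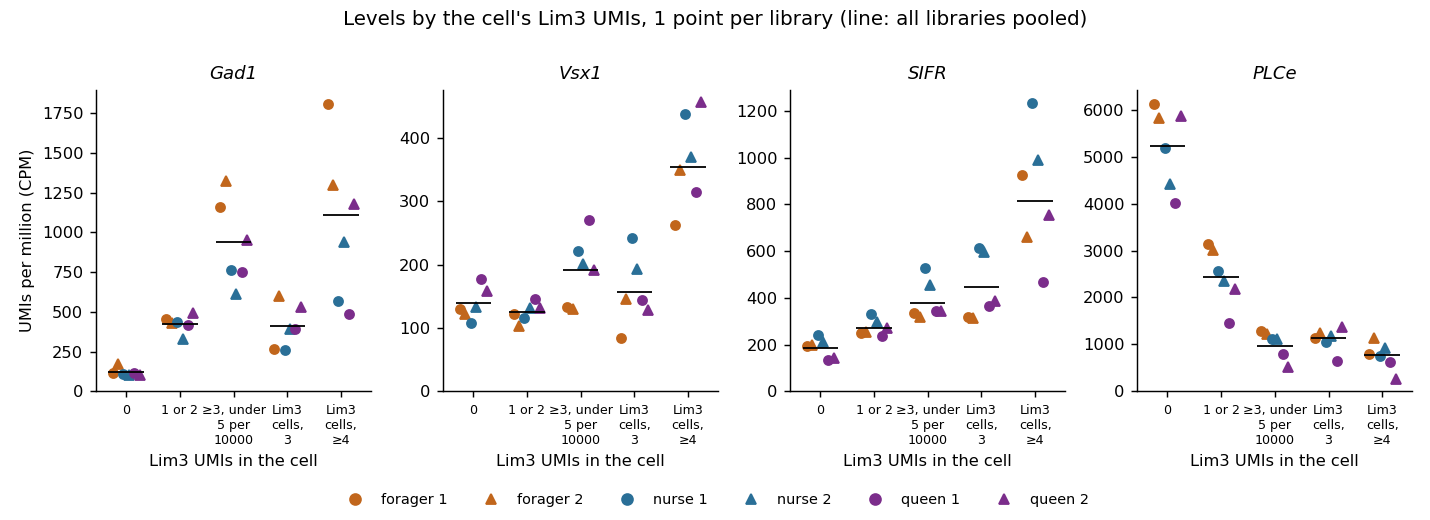
Levels of *Gad1*, *Vsx1*, *SIFR* and *PLCe* (CPM, summed over the cells of a class) by the number of *Lim3* UMIs in a cell, in kept cells with fewer than 2 UMIs of *bsh*. Points are the 6 libraries and the line is the pooled level. By pooled level *Gad1* is highest and *PLCe* lowest in Lim3 cells with 4 or more UMIs. In forager replicate 2, nurse replicate 1 and queen replicate 1, *Gad1* is higher in cells with 3 or more UMIs under 5 per 10000.

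Lim3 cells were found in every library. They numbered 59 of 20652 cells in forager replicate 1, 62 of 22019 in forager replicate 2, 25 of 20155 in nurse replicate 1, 80 of 20606 in nurse replicate 2, 49 of 20613 in queen replicate 1 and 35 of 17415 in queen replicate 2. These were shares of 0.286%, 0.282%, 0.124%, 0.388%, 0.238% and 0.201%. The nurse libraries were the lowest and the highest of all 6, and their exact 95% binomial intervals, 0.0803% to 0.183% and 0.308% to 0.483%, did not overlap. These intervals cover counting error only. Queen libraries averaged 0.219% ± 0.0260 (SD, n = 2) and worker libraries 0.270% ± 0.109 (SD, n = 4). Queens minus workers came to -0.0505 percentage points (p = 0.6 by an exact permutation test, two-sided). Foragers stood at 0.284% ± 0.00291 (SD, n = 2) and nurses at 0.256% ± 0.187 (SD, n = 2), with 0.0275 percentage points between them (p = 1 by the same exact test). Neither design could reach 0.05, since the smallest p was 0.0667 for queens against workers and 0.333 for foragers against nurses. Without nurse replicate 1 the second difference was -0.105 percentage points, so the spread between the nurse libraries was larger than any difference between castes.

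**Figure D2:**
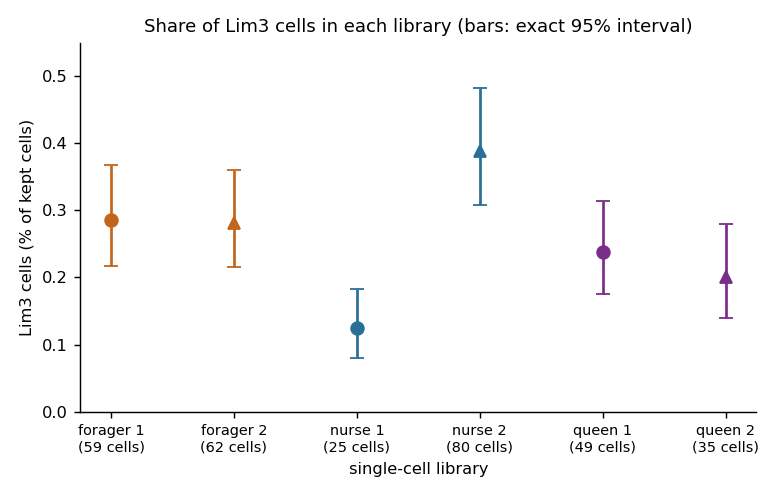
Share of Lim3 cells among kept cells (%) in each of the 6 single-cell libraries. Bars are exact 95% binomial intervals, and the nurse libraries, at 0.124% and 0.388%, enclose the other 4.

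The label was checked against markers of brain cell classes, as sums over the Lim3 cells of each library. The pan-neuronal gene *elav*, which encodes an RNA-binding protein, ran from 3648 to 4975 CPM with a median of 4463, against 3220 to 4013 CPM with a median of 3694 in other cells. None of the 4 neuron markers differed by the test used below (0.20 for *elav* on the log2 scale, adjusted p = 0.0815). *Vsx1* was higher in Lim3 cells, as described below, while *svp* was not: it ran from 5.26 to 31.0 CPM against 17.5 to 32.4 CPM (log2 fold change -0.09, adjusted p = 0.901). Without *Lim3* and *bsh*, 9 optic lobe markers of the study were tested: 2 were higher, 1 was lower and 6 were not called (median -0.03). Over all genes tested, 1.72% were higher and 4.12% lower. The 2 higher markers were *Vsx1* and *hth*, and the call of *hth* was lost without queen replicate 2. Most optic lobe markers thus did not set these cells apart. The 8 glial markers summed to between 291 and 752 CPM in Lim3 cells and between 509 and 1168 CPM in other cells, with at most 1 of the 8 at 0 in a library. The 2 photoreceptor markers, *ninaC* and *trp*, summed to between 0 and 12.4 CPM in Lim3 cells and between 3.93 and 5.56 CPM in other cells. Both were at 0 in at least 1 library of Lim3 cells, and levels so low in both classes cannot set them apart. In droplets, RNA free in the suspension also gives UMIs, and its part in the low levels of glial genes was not tested.

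Each library supplied its own control, in that the UMIs of its Lim3 cells were compared with those of all its other kept cells, with the library as a block. The Lim3 cells gave between 189957 and 528907 UMIs per library. A gene was called when its Benjamini-Hochberg adjusted p in the quasi-likelihood test of edgeR was under 0.01 and its log2 fold change was over 0.5 in size, the limits the study used. Of 10437 genes tested, 610 were called (5.84%), with 180 higher (1.72%) and 430 lower (4.12%) in Lim3 cells. The median log2 fold change over all genes was -0.05. Values are given below as the lowest, median and highest library.

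Summed over the cells of a library, Lim3 cells were rich in the main transcripts of GABA neurons. These sums mix cells rich and poor in *Gad1*: 127 of the 310 cells passed the limit on *Gad1* given below. *Gad1* was at 463, 879 and 1374 CPM in Lim3 cells and at 133, 158 and 221 CPM in other cells. The lowest Lim3 library lay above the highest library of other cells (log2 fold change 2.28 ± 0.09 SE, adjusted p = 7.32e-49). *VGAT*, the transporter that loads GABA into synaptic vesicles, was at 132, 199 and 267 CPM against 80.3, 85.0 and 94.5 CPM, again without overlap (1.20 ± 0.10, adjusted p = 1.19e-19). *GAT-1*, the transporter that takes GABA back up, was at 304, 354 and 419 CPM against 215, 234 and 323 CPM, and its log2 fold change of 0.48 did not pass the limit on size. *GABA-B-R2*, a subunit of the metabotropic GABA receptor, went the other way, at 70.6, 84.7 and 174 CPM against 138, 156 and 302 CPM (-0.90), with overlapping ranges. Of the 8 GABA genes, 3 were higher, 1 was lower and 4 were not called, and the median log2 fold change of the list was 0.27. The third gene called higher, *Grd*, lost its call when any of 3 libraries was left out: its log2 fold change was 0.59 without forager replicate 1, 0.67 without forager replicate 2 and 0.70 without queen replicate 2.

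Genes of acetylcholine neurons were low in the same cells. *VAChT*, which loads acetylcholine into vesicles, was at 14.2, 81.8 and 124 CPM in Lim3 cells and at 178, 231 and 300 CPM in other cells (-1.61 ± 0.12, adjusted p = 1.45e-23). *ChT-a*, a choline transporter, was at 238, 447 and 542 CPM against 1101, 1223 and 1342 CPM (-1.62 ± 0.09, adjusted p = 1.2e-35). *ChAT*, the enzyme that makes acetylcholine, was at 15.5, 50.7 and 84.2 CPM against 88.8, 125 and 142 CPM (-1.36 ± 0.14, adjusted p = 2.04e-14). For all 3 genes the highest Lim3 library was below the lowest library of other cells. *VGlut*, the vesicular transporter of glutamate, did not differ by the test, at 39.1, 63.3 and 84.2 CPM against 46.5, 58.9 and 77.0 CPM (0.03, adjusted p = 0.949). Of the 10 genes for transmitters other than GABA, none was higher, 4 were lower and 6 were not called, with a median of -0.69.

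The same picture came from shares of cells when every cell was thinned to 3000 UMIs, which evens out their depth. Of the 310 Lim3 cells 299 were deep enough, as were 99993 other cells, and 11 and 21157 were left out. A *Gad1* UMI was found in 60.4% ± 9.86 (SD, n = 6 libraries) of Lim3 cells and in 22.5% ± 3.66 of other cells (higher in 6 of 6 libraries, two-sided exact sign-flip permutation test, p = 0.03125, adjusted p = 0.0729 over 7 markers). *VGAT* was found in 38.1% ± 9.41 against 20.6% ± 1.42 (higher in 6 of 6, the same p and adjusted p). *VAChT* was found in 22.5% ± 9.97 against 43.6% ± 4.99 (higher in 0 of 6, the same p and adjusted p). A p of 0.03125 is the smallest that 6 libraries allow, and after adjustment over the 7 markers these 3 did not pass 0.05. For *Vsx1* the shares were 30.8% and 27.1% (exact permutation test, p = 0.281) and for *VGlut* 19.3% and 15.3% (p = 0.25). The glial gene *repo* stood at 12.5% in Lim3 cells and 15.9% in other cells (exact permutation test, p = 0.156). The source of these UMIs of a glial gene was not tested.

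*Vsx1*, *isl* and some other transcription factor genes were higher in Lim3 cells. *Vsx1* was at 212, 294 and 384 CPM against 108, 130 and 175 CPM in other cells, with no overlap (1.09 ± 0.09, adjusted p = 1.79e-20). Most of this lay in the Lim3 cells with 4 or more UMIs of *Lim3*, at 354 CPM over pooled cells. Those with 3 UMIs had 157 CPM, near the 139 CPM of cells with 0 UMIs. Depth differed between these classes. *isl*, the partner of Lim3 in flies, was at 156, 214 and 347 CPM against 38.3, 46.1 and 68.1 CPM (2.07 ± 0.11, adjusted p = 1.53e-37). *omb*, a T-box factor named for the optomotor behaviour of fly mutants, was at 109, 219 and 295 CPM against 66.7, 83.3 and 94.3 CPM (1.34 ± 0.10, adjusted p = 1.5e-23). All 3 genes stood above other cells in each library. LOC102656029, annotated as a homeobox protein of the Hmx family, had the largest fold among the higher genes named here, at 52.6, 57.9 and 85.3 CPM against 7.80, 8.87 and 11.9 CPM (2.71 ± 0.21).

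The *Lhx9* paralogs went opposite ways, and *Sox* genes were higher. Of the genes annotated as *Lhx9*, LOC413125 (*Lhx9a*) was at 80.8, 123 and 180 CPM against 30.4, 50.9 and 62.8 CPM (1.31 ± 0.12), whereas LOC726415 (*Lhx9b*) was at 3.55, 12.1 and 22.7 CPM against 58.2, 79.0 and 117 CPM (-2.58 ± 0.21). Neither pair of ranges overlapped. *Sox-2* was at 205, 222 and 251 CPM against 91.1, 99.5 and 131 CPM (1.0). *Sox-19b* and *Sox-21-B* were also called higher (1.16 and 1.25), with ranges that overlapped between libraries. *Bcl11b*, a zinc-finger factor, was at 131, 170 and 231 CPM against 75.2, 88.0 and 103 CPM (0.91).

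A similar number of transcription factors were lower. *pros*, which in flies ends division in neural precursors, was at 105, 150 and 220 CPM against 284, 330 and 382 CPM (-1.12). *dac*, *FoxD3* and *vvl*, all transcription factors, were lower too (-2.01, -2.18 and -1.96). Of 35 transcription factor genes in the list that were tested, 10 were higher, 11 lower and 14 not called, with a median of -0.15. *hth*, a homeobox gene, was among those called (68.1, 101 and 227 CPM against 65.0, 69.5 and 89.8 CPM, 0.58 ± 0.13), but without queen replicate 2 its log2 fold change was 0.32 and the call was lost.

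**Figure D3:**
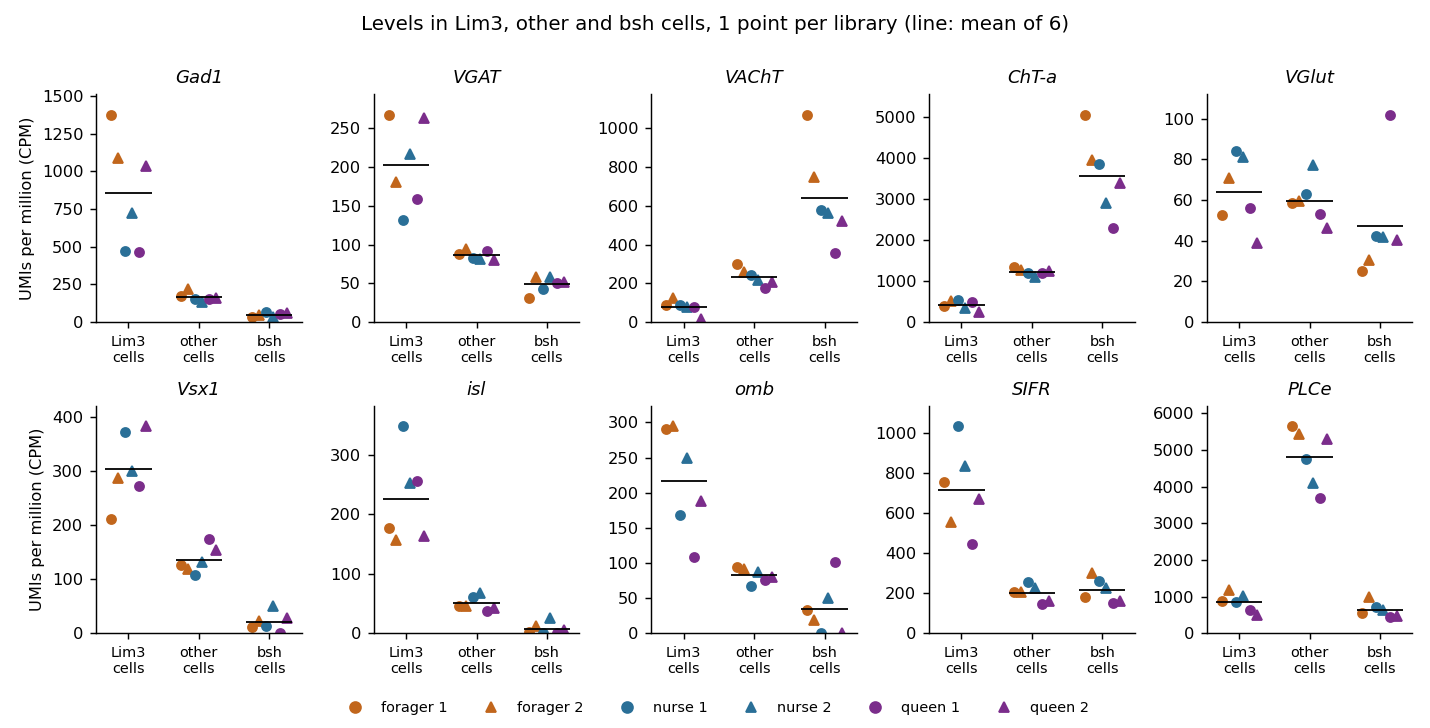
Levels (CPM, with points for each of the 6 libraries and a line at their mean) of GABA, acetylcholine and glutamate genes, *Vsx1*, *isl*, *omb*, *SIFR* and *PLCe* in Lim3 cells, other cells and bsh cells. *Gad1* reaches 463 to 1374 CPM in Lim3 cells, 133 to 221 CPM in other cells and 33.5 to 70.3 CPM in bsh cells.

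Among receptors, that of the peptide SIFamide stood out by fold. *SIFR* was at 444, 713 and 1032 CPM in Lim3 cells and 146, 206 and 255 CPM in other cells, with no overlap (1.76 ± 0.08, adjusted p = 5.11e-44). *KaiR-a*, an ionotropic glutamate receptor subunit of the kainate type, was at 186, 233 and 332 CPM against 125, 143 and 162 CPM (0.68). *Glurb*, a metabotropic glutamate receptor, was also higher (0.73). Receptors for dopamine were lower. *DopR2*, a dopamine receptor, was at 52.5, 59.0 and 93.3 CPM against 184, 201 and 228 CPM (-1.69), and *Dop1* and *Dop3*, also dopamine receptors, were lower too (-1.72 and -1.11). *nAChRa6*, a subunit of the nicotinic receptor, was at 68.4, 102 and 126 CPM against 174, 225 and 245 CPM (-1.17). Of the 5 acetylcholine receptor genes in the list, this gene and *mAChR-DM1* (-1.14) were lower and the other 3 were not called. *Hiscl1*, the chloride channel opened by histamine, the transmitter of insect photoreceptors, was at 17.8, 24.5 and 31.1 CPM against 85.3, 114 and 132 CPM (-2.23). Of 27 receptor genes 8 were higher, 11 lower and 8 not called (median -0.19).

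Neuropeptide genes were low or not called in Lim3 cells. *AstC*, the gene of allatostatin C, was at 28.0, 53.9 and 77.9 CPM against 101, 107 and 141 CPM (-1.18). *orcokinin* and *prohormone-4*, which encode peptide precursors, were lower too (-1.48 and -1.22). Of 15 neuropeptide genes none was higher, 6 were lower and 9 were not called (median -0.96). The gene of the SIFamide peptide itself gave 4 UMIs in all Lim3 cells together, while its receptor was among the genes furthest above other cells. None of the 7 genes for synaptic vesicle release was called (median 0.27).

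The other cells included the Kenyon cells of the mushroom body, and the genes that mark these were low in Lim3 cells. *PLCe* was at 504, 867 and 1179 CPM against 3682, 5030 and 5645 CPM (-2.57 ± 0.09). *Mblk-1*, a transcription factor of Kenyon cells, was at 1163, 1533 and 2355 CPM against 3693, 5026 and 5761 CPM (-1.56). Of the 5 Kenyon cell markers 4 were lower, and they summed to between 3059 and 4870 CPM in Lim3 cells and between 10178 and 13373 CPM in other cells. The glial factor gene *repo* was at 17.8, 35.4 and 62.2 CPM against 50.9, 78.6 and 112 CPM (-1.21), and 6 of 8 glial markers were lower. Among the genes furthest below other cells was LOC726262, annotated as an adenylate cyclase type 8-like protein, which makes cyclic AMP. It was at 36.9, 83.0 and 106 CPM against 419, 529 and 628 CPM (-2.76).

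A sharper contrast was with bsh cells, those with at least 3 UMIs of *bsh* at 5 or more per 10000 and fewer than 2 UMIs of *Lim3*. In flies bsh marks neurons of the lamina and medulla. There were 136 such cells, and their median depth of 7982 UMIs was above that of Lim3 cells. Queen replicate 1 held only 4 of them, with 19661 UMIs in all. An end of a range given below for bsh cells can therefore rest on very few UMIs. Of 4547 genes tested, 546 were called (12.0%), with 323 higher (7.10%) and 223 lower (4.90%) in Lim3 cells. The median log2 fold change over all genes was 0.00.

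The transmitter genes of these classes were opposed. *Gad1* was at 33.5, 48.5 and 70.3 CPM in bsh cells, all below the lowest Lim3 library (4.38 ± 0.21). *VGAT* was at 31.5, 51.3 and 58.6 CPM (2.20). *VAChT* was at 356, 569 and 1068 CPM in bsh cells against 14.2, 81.8 and 124 CPM in Lim3 cells (-3.13 ± 0.17), and *ChT-a* was at 2289, 3616 and 5042 CPM (-3.16). After thinning to 3000 UMIs, a *VAChT* UMI was found in 80.9% and a *Gad1* UMI in 10.3% of bsh cells, against 22.5% and 60.4% of Lim3 cells.

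Transcription factor genes were exchanged as well. *Vsx1* was at 0, 18.6 and 50.3 CPM in bsh cells (3.66 ± 0.24), *isl* at 0, 3.92 and 25.1 CPM (4.73) and *omb* at 0, 26.4 and 102 CPM (3.33). These 3 genes were read at over 100 CPM in each library of Lim3 cells. In the other direction, *Lhx9b* was at 102, 303 and 485 CPM in bsh cells (-4.50) and *cut*, a homeobox gene, was at 348, 415 and 595 CPM against 57.2, 67.9 and 105 CPM in Lim3 cells (-2.65). LOC411104, annotated as the homeobox protein Nkx-2.4, was at 762, 1008 and 1145 CPM against 7.10, 58.1 and 79.0 CPM (-4.24). *hth* was also lower in Lim3 cells (102, 362 and 496 CPM in bsh cells, -1.70), although it was among the genes higher in Lim3 cells when all other cells served as the control. Of 19 transcription factor genes tested, 11 were higher in Lim3 cells, 4 lower and 4 not called (median 1.27).

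Genes of signalling also differed between these classes. *Rim1*, a scaffold of the vesicle release site, was at 707, 868 and 1015 CPM in Lim3 cells and 46.1, 66.4 and 307 CPM in bsh cells (2.99). *Tk*, the gene of tachykinin peptides, was at 174, 240 and 346 CPM against 23.0, 39.2 and 65.3 CPM (2.84). LOC409818, annotated as a sodium/calcium exchanger, was at 441, 831 and 901 CPM against 0, 45.1 and 108 CPM (3.88). Of 17 receptor genes tested 11 were higher and 2 lower in Lim3 cells (median 1.40), with *KaiR-a* (2.59), *mGlutR1* (2.28) and *TyrR*, the tyramine receptor (1.77), among the higher. *PLCe* was low in both classes, at 458, 591 and 980 CPM in bsh cells (0.37, not called).

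Since *Gad1* marked so many of these cells, they were also set against other GABA cells. Of the 310 Lim3 cells, 127 held at least 3 UMIs of *Gad1* at 5 or more per 10000, from 6 in nurse replicate 1 to 32 in nurse replicate 2. They were compared with 5479 other cells that passed the same limit and held fewer than 2 UMIs of *Lim3* and of *bsh*. *VGAT* then did not differ by the test, at 260, 297 and 406 CPM against 236, 293 and 320 CPM (0.06, adjusted p = 0.886). Of 8296 genes tested 328 were called (3.95%), with 88 higher (1.06%) and 240 lower (2.89%) in the Lim3 cells, and the median log2 fold change over all genes was -0.05.

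*Vsx1* and *SIFR* were higher in Lim3 cells within this contrast as well. *Vsx1* was at 251, 320 and 688 CPM against 46.4, 55.0 and 76.9 CPM (2.52 ± 0.12, adjusted p = 2.27e-88), and *SIFR* was at 772, 985 and 2171 CPM against 190, 218 and 263 CPM (2.18 ± 0.10). The lowest Lim3 library was above the highest library of other GABA cells for both. LOC408963, annotated as a pleckstrin homology protein of the PLEKHG5 kind, was at 296, 538 and 900 CPM against 114, 134 and 169 CPM (1.81). The uncharacterized LOC113218941 was at 211, 348 and 484 CPM against 66.4, 80.8 and 97 CPM (1.91). *Glurb* was higher too (0.78).

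Some transcription factors of other GABA cells were nearly missing from the Lim3 cells. LOC100577332, annotated as GATA-binding factor C, was at 0, 8.86 and 19 CPM against 225, 325 and 531 CPM (-5.12 ± 0.24). *Kr*, the zinc-finger gene Krüppel, was at 0, 16.7 and 26.9 CPM against 90.8, 160 and 298 CPM (-3.37). *pros* was at 52.9, 104 and 229 CPM against 388, 457 and 554 CPM (-1.93). *Sox-19b* and *Sox-21-B*, which were higher in Lim3 cells than in all other cells, were lower in this contrast (-1.81 and -1.89). Of 31 transcription factor genes tested 3 were higher, 10 lower and 18 not called (median -0.53). With cells of 4000 to 10000 UMIs only, 101 genes were called, and *omb* (0.81 in all cells, 0.49 with adjusted p = 0.313 in this window) and the serotonin receptor gene *5-HT2alpha* (1.77 and 0.03) were no longer among them.

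*Vsx1* itself was uneven among the Lim3 cells. Of the 310 cells, 54 held at least 3 UMIs of *Vsx1* at 5 or more per 10000 and 178 held none, from 6 and 12 in nurse replicate 1 to 14 and 41 in nurse replicate 2. These sets were compared within libraries. They differ in depth, because a cell with few UMIs is more often without *Vsx1*. Of 2323 genes tested 40 were called (1.72%), with 8 higher (0.344%) and 32 lower (1.38%) in cells with *Vsx1*.

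*omb* was the clearest difference between these sets. It was at 0, 23.9 and 50.4 CPM in cells with *Vsx1* and at 195, 338 and 438 CPM in cells without (-3.71 ± 0.31, adjusted p = 9.57e-10), so the ranges lay far apart. *AstA-R*, a receptor of allatostatin A, was at 0, 32.0 and 101 CPM against 112, 168 and 172 CPM (-2.09), and LOC408699, annotated as the cyclic AMP phosphodiesterase 8, was at 64.3, 149 and 310 CPM against 359, 526 and 887 CPM (-1.77). In the other direction, LOC113218941 was at 374, 403 and 861 CPM against 31.2, 159 and 259 CPM (1.61), and LOC408963 was at 396, 640 and 1054 CPM against 147, 209 and 364 CPM (1.39). *SIFR* was at 540, 967 and 1877 CPM against 235, 307 and 874 CPM (1.46 ± 0.20, adjusted p = 1.37e-05), with overlapping ranges. In cells with at least 4 UMIs of *Lim3* its log2 fold change was 1.3 and the call was lost (adjusted p = 0.0175). *ChT-a* was lower in cells with *Vsx1* (90.0, 234 and 330 CPM against 341, 517 and 843 CPM, -1.31), but with cells of 4000 to 10000 UMIs only it was at -0.82 (adjusted p = 0.106). *Gad1*, *VGAT* and *isl* were not called, at 0.26 (adjusted p = 0.613), 0.01 and -0.41.

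Clustering of the 310 cells, without *Lim3* and *bsh* and with values centred within libraries, gave 3 groups. The groups were defined by their own genes, so their levels are a description with no test, pooled over cells. Each group held cells of all 6 libraries. Group 1 held 131 cells (42.3%, median 5002 UMIs), group 2 held 103 (33.2%, 7634 UMIs) and group 3 held 76 (24.5%, 5576 UMIs).

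Group 1 was led by *hth*, at 282 CPM against 17.3 CPM in the other Lim3 cells, followed by *Foxp*, a forkhead factor, and LOC410893, annotated as transcription factor AP-2-epsilon. It also had most of the *omb*, at 391 CPM, and 609 CPM of *Gad1*. Its *hth* ran from 179 to 424 CPM over the libraries and its *omb* from 211 to 504 CPM. Of its 131 cells, 94 held a *Gad1* UMI and 92 held no *Vsx1*. Its first 3 leading genes were read in a minority of these cells: *hth* in 41, *Foxp* in 29 and LOC410893 in 28. LOC408699, also among its leading genes, was read in 114.

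Group 2 was led by LOC102654776 and by *Gad1*, at 1595 CPM against 407 CPM in the other Lim3 cells, with *Eaat-1*, a glutamate transporter, also among its leading genes. It had 1055 CPM of *SIFR* and 355 CPM of *Vsx1*. Of its 103 cells, 100 held a *Gad1* UMI and 34 held at least 3 UMIs of *Vsx1*. Over the libraries its *Gad1* ran from 866 to 2206 CPM, against 280 to 1107 CPM in group 1.

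Group 3 was poor in GABA genes. It had 95.1 CPM of *Gad1*, below the 133 CPM of the lowest library of all other brain cells, and 58.7 CPM of *VGAT*. Of its 76 cells 17 held a *Gad1* UMI. Its leading genes were LOC410694, *Sox-21-B*, *Sox-19b* (338 CPM against 40.4 CPM in the other Lim3 cells) and LOC410021, annotated as Skeletor. *Vsx1* was at 413 CPM, *isl* at 348 CPM and *VGlut* at 133 CPM, each the highest of the 3 groups. *Gad1* in group 3 ran from 0 to 257 CPM over the libraries, and *Sox-19b* from 164 to 532 CPM. *Vsx1* ran from 79.9 to 572 CPM, against 309 to 618 CPM in group 2, so it was not highest in group 3 in each library.

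**Figure D4:**
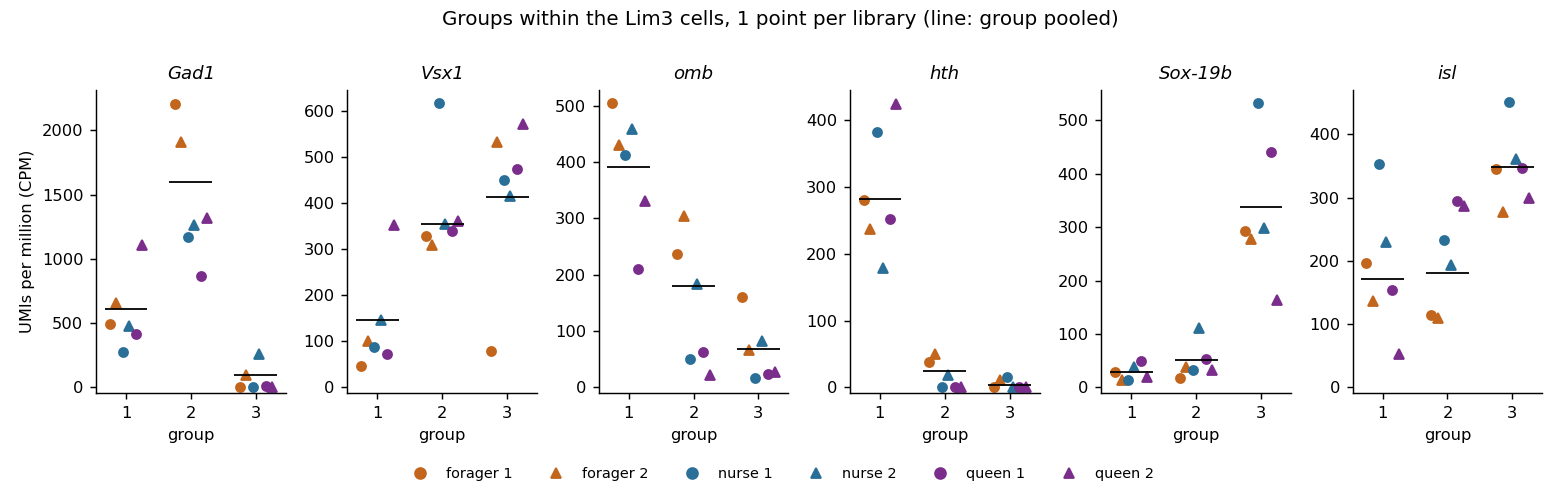
Levels (CPM) of *Gad1*, *Vsx1*, *omb*, *hth*, *Sox-19b* and *isl* in the 3 groups within the Lim3 cells. Points are the 6 libraries and the line is the pooled level. By pooled level *hth* and *omb* are highest in group 1, *Gad1* in group 2 and *Sox-19b*, *Vsx1* and *isl* in group 3.

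The study compared castes, and the Lim3 cells of queens were set against those of workers, taken as the mean of foragers and nurses, in a fit of all 6 libraries. Of 5871 genes tested 58 were called (0.988%), with 43 higher (0.732%) and 15 lower (0.255%) in queens. In all other cells, whose sums are far larger, 1587 of 11206 genes were called (14.2%). The following 6 genes, each higher in Lim3 cells than in other cells, were not called between queens and workers. *Gad1* stood at -0.10 (adjusted p = 0.859), *VGAT* at 0.16, *Vsx1* at 0.32, *isl* at 0.08, *omb* at -0.65 and *SIFR* at -0.35. A test of whether the caste change itself differed between Lim3 cells and other cells called 25 of 10925 genes (0.229%), 21 with a queen-minus-worker value that was higher in Lim3 cells than in other cells (0.192%) and 4 with a lower one (0.0366%), none of them among these 6 genes.

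Of the 20 genes that the naming rule gave for this comparison, 2 kept their call in every alternative that tested them. *ND1*, a mitochondrial gene of respiratory complex I, was at 692, 558, 521 and 524 CPM in forager replicates 1 and 2 and nurse replicates 1 and 2, and at 2465 and 1119 CPM in queen replicates 1 and 2 (1.80 ± 0.22, adjusted p = 0.000214). Both queen libraries lay above all workers. In other cells *ND1* was called higher in queens as well (1.38). The uncharacterized LOC408807 gave 0, 1, 0 and 0 UMIs in the worker libraries, in the same order, and 16 and 56 UMIs in the queens, or 49.7 and 199 CPM. In other cells it was at 82.9 and 542 CPM in queens and between 0.232 and 1.5 CPM in workers, and the part that free RNA plays in the Lim3 cells was not tested.

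*5-HT2alpha* was the receptor gene called between these castes. It was at 31.0, 53.6, 73.7 and 88.9 CPM in the worker libraries and at 9.33 and 7.11 CPM in the queens (-2.66 ± 0.51, adjusted p = 0.0071), without overlap. In other cells it stood at -0.45 (adjusted p = 0.033). The call was lost without forager replicate 2 (adjusted p = 0.016), nurse replicate 2 (0.0313), queen replicate 1 (0.0479) or queen replicate 2 (0.0422). With the study's upper UMI limit it was at -1.69 (adjusted p = 0.127). LOC727173, annotated as a pancreatic lipase, was at 112, 97.4, 116 and 149 CPM in workers and 15.5 and 28.4 CPM in queens (-2.32, and -1.95 with adjusted p = 0.0267 without queen replicate 1). The queen values of LOC727173 rest on 5 and 8 UMIs, and in other cells it was called lower in queens as well (-1.66). LOC724295, annotated as a regulatory subunit of protein phosphatase 1, was called higher in queens in other cells too (0.71). In Lim3 cells it gave 1, 5, 0 and 0 UMIs in workers and 17 and 15 in queens. Its call was lost without nurse replicate 2 (adjusted p = 0.0139) or queen replicate 1 (adjusted p = 0.0204).

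Foragers and nurses differed at few genes. Of 5871 genes tested 5 were called (0.0852%), all higher in foragers and none lower, where 555 had an unadjusted p under 0.05. In other cells 9 genes were called (0.0803%). The gene of the peptide precursor *prohormone-2* was at 646 and 502 CPM in foragers and at 89.5 and 136 CPM in nurses (2.32 ± 0.25, adjusted p = 0.000173). The queen libraries, at 348 and 554 CPM, were above both nurse libraries, and the higher of them was above forager replicate 2. In other cells its values were 317 and 322 CPM against 175 and 156 CPM (0.98, adjusted p = 0.0208). LOC724752 was at 114 and 129 CPM in foragers and 0 and 20.8 CPM in nurses (3.06 ± 0.44, adjusted p = 0.00313), with 96.4 and 107 CPM in queens. It was called in other cells too (1.33).

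The other 3 calls depended on single libraries. *Mblk-1* was at 2354 and 2355 CPM in foragers, 1163 and 1346 CPM in nurses and 1564 and 1503 CPM in queens (0.97 ± 0.15, adjusted p = 0.0078). Its adjusted p was 0.0417 without forager replicate 1, 0.0261 without forager replicate 2, 0.161 without nurse replicate 1 and 0.0376 without nurse replicate 2. LOC726302 was at 219 and 163 CPM against 26.3 and 39.7 CPM (2.48), with an adjusted p of 0.0101, 0.016 and 0.0405 without forager replicate 1, nurse replicate 1 and nurse replicate 2. LOC410732 was at 324 and 248 CPM against 111 and 113 CPM (1.42), with an adjusted p of 0.0927, 0.0798 and 0.0979 without the same 3 libraries. *Gad1* was at 1374 and 1086 CPM in foragers and 469 and 724 CPM in nurses, which did not pass the test (1.07, adjusted p = 0.101). The forager and nurse libraries were not alike in the makeup of their Lim3 cells: 24 of 59 and 23 of 62 cells in the foragers and 7 of 25 and 23 of 80 in the nurses belonged to group 2, and the part of this in the differences was not tested.

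**Figure D5:**
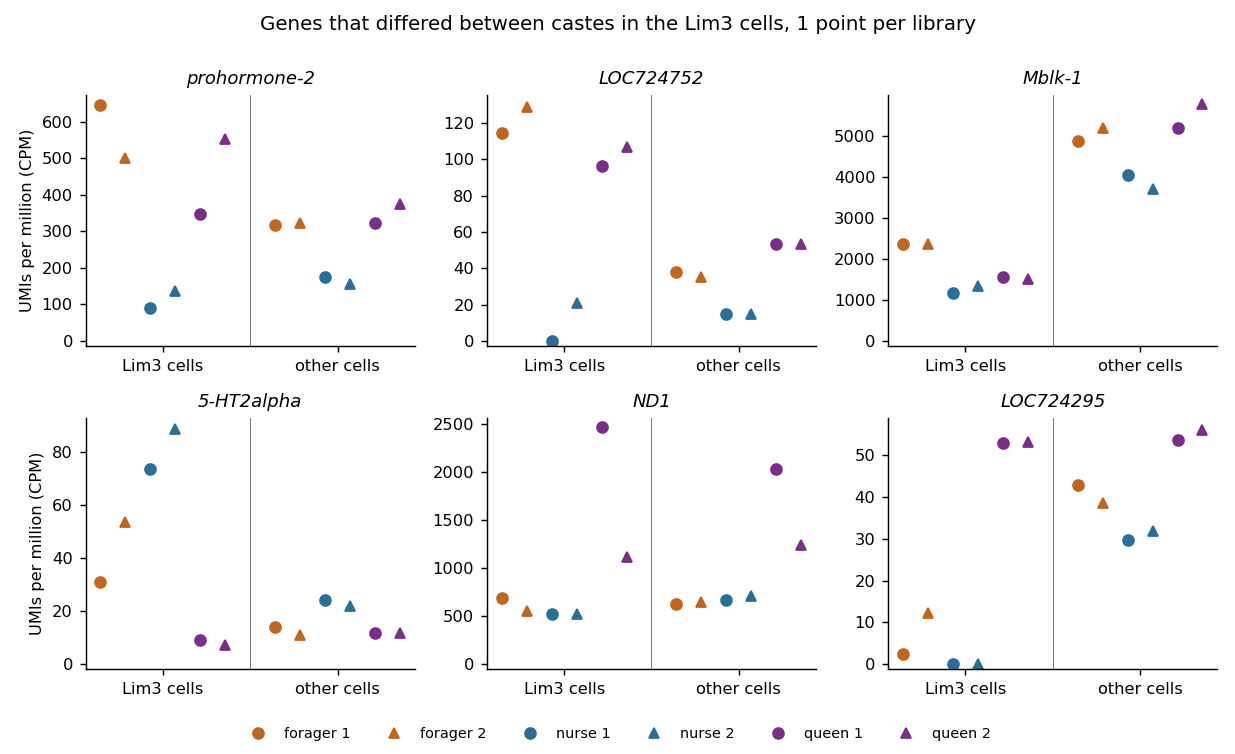
Levels (CPM) of *prohormone-2*, LOC724752, *Mblk-1*, *5-HT2alpha*, *ND1* and LOC724295 in Lim3 cells and in other cells of each of the 6 libraries. *prohormone-2* in Lim3 cells is at 646 and 502 CPM in foragers and at 89.5 and 136 CPM in nurses.

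*Lim3* itself was also read in bulk RNA of whole brains, in libraries that the rule did not use. In bulk RNA, fewer cells of a type and less RNA per cell cannot be told apart. The forager libraries gave 52 and 44 expected counts of *Lim3*, the nurse libraries 54 and 36 and the queen libraries 117 and 74, of 13135057 to 15177035 per library. These were 3.96 and 3.23, 3.56 and 2.51, and 8.17 and 5.19 CPM, so both queen libraries were above all workers. The difference did not pass the test (log2 fold change 0.83 ± 0.33, adjusted p = 0.096), in a comparison where 964 of 9932 genes were called (9.71%) with a limit of 1 on the log2 scale. Foragers and nurses differed by -0.29 ± 0.41 (adjusted p = 0.785), where 1 gene was called (0.0101%). *Vsx1* had expected counts of 129 and 112, 99 and 145, and 102 and 81 in foragers, nurses and queens (queens against workers -0.59, adjusted p = 0.076).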

How the data were processed

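Single-cell libraries were aligned by the authors to Amel_HAv3.1 with Cell Ranger 3.1.0, and the deposited matrices hold raw UMI counts per gene and barcode for 12292 features, of which 12261 were paired with a RefSeq gene. Bulk reads were processed by the authors with Trimmomatic 0.39, STAR and RSEM, and the deposited values are expected counts, rounded here to whole numbers.

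Cells with 200 to 5000 genes, at least 500 UMIs and under 15% of UMIs from the 450 features with the prefix MT- were kept. Of these features 13 lie on the mitochondrial chromosome and 437 on nuclear linkage groups in RefSeq, so this is not a share of mitochondrial transcripts alone. UMIs were summed per library and class and tested with edgeR 4.0.16 in R 4.3.3 (TMM, filterByExpr, quasi-likelihood, Benjamini-Hochberg adjustment). Classes were compared with the library as block, and castes in a fit of all 3 castes. DESeq2 1.42.0 was an alternative. CPM are counts per 1000000 UMIs summed over the cells of a class. Groups were found with leidenalg 0.10.2, at resolution 0.5. Shares were tested with scipy 1.17.1. Figures were drawn with matplotlib 3.10.9. Intervals cover counting error only.

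The genes named were those of the lists, then up to 10 called genes of the largest fold in each direction at 50 CPM or more. The members and lists were chosen with earlier results of these data known. In data simulated for Lim3 cells against other cells, 151 of 200 genes changed by 2 on the log2 scale were recovered by edgeR, with 1 false call. For cells with *Vsx1* against without, 171 of 200 were recovered, and for queens against workers in Lim3 cells 169. For a caste change that differs between Lim3 cells and other cells, 109 of 200 were recovered, so that test misses more. Sequences were not analysed here.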

Additional observations from a re-analysis of the deposited data

Results flagged for a closer look

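The change from workers to queens was tested for a difference between Lim3 cells and other cells with edgeR, and 25 of 10925 genes passed (0.229%), of which 14 fell under the naming rule. Values are queen minus worker in Lim3 cells less the same in other cells, on the log2 scale. The difference was positive for *Kakusei* (1.67, adjusted p = 1.385e-08), LOC100576924, an ankyrin repeat protein (1.22, adjusted p = 4.745e-08), LOC100576478 (1.26, adjusted p = 1.6787e-07), LOC725803, annotated as artichoke (1.36, adjusted p = 5.9882e-06), and LOC411345, annotated as neurotrimin (1.29, adjusted p = 6.4403e-05). It was also positive for LOC726045 (1.34, adjusted p = 0.00014171), LOC410893 (1.59, adjusted p = 0.0010024), LOC412865 (1.04, adjusted p = 0.0066035) and the glial gene *ebony* (1.42, adjusted p = 0.0075036). LOC724295 was at 8.21 (adjusted p = 9.7912e-07), a value that depends on the prior count because it had 0 UMIs in both nurse libraries. The difference was negative for LOC410013, annotated as calexcitin-2 (-1.07, adjusted p = 6.4403e-05), LOC551232, annotated as the nuclear receptor HR38 (-0.98, adjusted p = 0.0001746), LOC410706 (-1.42, adjusted p = 0.00019369) and LOC551930 (-1.14, adjusted p = 0.008237). Such a difference need not be a caste change in Lim3 cells. Of these genes only LOC724295 and LOC410013 were called between queens and workers within Lim3 cells. *ebony* was at -0.04 (adjusted p = 0.966) in Lim3 cells and -1.41 in other cells, and LOC551930 at -0.12 and 0.94.

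*Kakusei*, a noncoding RNA gene known to respond to neural activity in bees, was at 122, 75.5, 47.4 and 98.3 CPM in the Lim3 cells of workers and at 103 and 206 CPM in those of queens. In other cells it was at 69.5, 73.3, 103 and 96.1 CPM in workers and lower in queens, at 37 and 52.3 CPM. LOC100576478 was the gene that kept its call in all 8 alternatives. It was at 124, 131, 147 and 180 CPM in the Lim3 cells of workers and at 283 and 220 CPM in those of queens, without overlap. Without queen replicate 2, in which LOC100576924 was at 544 CPM against 165 CPM in queen replicate 1, 11 of the 14 genes lost their call, and with DESeq2 13 of 14 did. In a separate check of 17 values, each over the 4 worker libraries only, none had a library far from the others. The queen libraries were not checked in this way.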

How the results depend on the processing

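Named genes kept their direction in every alternative that tested them: against other cells 58 of 75 named calls held in all alternatives, against bsh cells 50 of 59, against other Gad1 cells 28 of 50 and between cells with and without *Vsx1* 7 of 20. The count against bsh cells was 359 with cells of 4000 to 10000 UMIs, where fewer cells entered. Against other Gad1 cells it was 175 with DESeq2 and 101 with that depth window. Between cells with and without *Vsx1* it was 24 with DESeq2, 85 with no filter on low counts, 12 with the depth window and 14 with at least 4 UMIs of *Lim3*, a limit chosen after seeing the data. Between queens and workers it was 26 with DESeq2, 207 with no filter, 89 with the study's upper UMI limit, 27 with at least 4 UMIs and 23 (without nurse replicate 2) to 64 when a library was left out. Between foragers and nurses it was 10 with DESeq2, 44 with no filter, 10 with the upper UMI limit and 2 to 22 when a library was left out. The genes whose caste change differed between classes numbered 3 with DESeq2 and 12 to 27 when a library was left out. The causes were not tested. Shares of Lim3 cells changed sign between queens and workers with at least 5 UMIs at 10 per 10000 (0.00530 percentage points) and with at least 4 UMIs (0.000719), and between foragers and nurses with the former limit (-1.08e-05) and over libraries left out (-0.105 to 0.160). With at least 4 UMIs, the thinned share of *VGlut* in Lim3 cells minus that in other cells was -4.24 percentage points. Bulk *Lim3* between foragers and nurses ran from -0.67 to 0.21. The limit of 5 UMIs at 10 per 10000 left 8 cells and was not run for expression. Replicate numbers did not pair the libraries (correlations of deviations from -0.0964 to 0.0223). With the replicate block 62 genes were called between queens and workers and 7 between foragers and nurses, bulk *Lim3* was at 0.82 (adjusted p = 0.0842) between queens and workers, and no named call changed. With 25 to 80 Lim3 cells per library and 3 *Lim3* UMIs in many, depth limits which cells are found and which low genes can be tested.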
